A study of Rattus norvegicus with 78 samples.

Results

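Of 14217 genes with a probeset of a single symbol on the array, 40 met the rule for heterotrimeric G protein subunits and regulators of G protein signalling (RGS), 25 of them subunits and 15 RGS genes. A gene was taken where its symbol began with Gna, Gnb or Gng followed by the letter or digit of a subunit, or with Rgs and a digit (Rgs9 was not part of the rule), and where the brightest of its probesets had a mean intensity above 30 over all 78 arrays. The rule found 47 genes, and 7 of these were at or below 30 (Gna15, Gnat1, Gnat2, Gnat3, Gngt1, Rgs1 and Rgs18). Gna15, a G alpha subunit of blood cells, was just below the limit at a mean intensity of 27.8 and Rgs22 just above it at 37.0. Rgs7bp, which carries a symbol of the rule, is a binding partner of RGS proteins rather than an RGS protein itself. Gnai3 was not named, because its probesets carry the symbol of Gnai1 as well.

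A heterotrimeric G protein joins a receptor at the cell surface to enzymes and channels inside the cell. The alpha subunit binds GTP when the receptor is occupied and parts from the beta and gamma subunits, which act together as one unit: Gs and its relative Golf (Gnal) stimulate adenylyl cyclase, Gi and Go hold it back, and Gq and its relative G11 switch on phospholipase C beta. RGS proteins speed up the hydrolysis of GTP by the alpha subunit and so shorten the signal. Muscarinic acetylcholine receptors, serotonin receptors and most other transmitter receptors of the forebrain work through these proteins.

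Expression had been measured in hippocampus (HIP) and in prefrontal/frontal cortex (P/FC, the whole frontal lobe) of 2 lines of adult male rats, the Flinders Sensitive Line (FSL) and the Flinders Resistant Line (FRL), both bred from Sprague-Dawley rats for their response to an anticholinesterase. No drug treatment is named for either line, all had gone through a forced swim test about a week before, and both lines had been bred and housed at one place. Cohort 1 had 12 FRL and 9 FSL arrays in each region, cohort 2, which followed 6 months later, had 10 FRL and 8 FSL. The labels count each array as a separate sample and do not say which arrays of HIP and P/FC came from the same rat, so p-values measure the spread between arrays. The lines differ over the whole genome, so that no single gene or agent separates them, and in dissected tissue fewer cells of a type cannot be told apart from less RNA per cell. The 2 regions had been handled in separate runs, so that region and run cannot be told apart, and some FSL labels carry FRL in brackets, where the group was taken from the title and the strain.

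The median intensity of an array lay between 56.8 and 66.0, and no 2 arrays held the same values. Tissue markers followed the region: all 6 hippocampus markers that were tested were lower in P/FC, and 2 of 3 cortex markers were higher there. The log2 ratio of the control probesets at the 3' and 5' ends of Gapdh and of Actb, a measure of RNA integrity, was compared between the lines by exact permutation tests (2-sided, adjusted over 8). For Gapdh the difference of FSL minus FRL in P/FC was -0.098 in cohort 1 (exact test, adjusted p = 0.0198) and -0.097 in cohort 2, which did not pass (adjusted p = 0.0582), and in HIP it was -0.043 in each cohort and did not pass. For Actb it was -0.12 in cohort 1 of HIP (exact test, adjusted p = 0.00359) and -0.084 in cohort 2 (adjusted p = 0.0170). In P/FC that of Actb was -0.093 in cohort 1 (exact test, adjusted p = 0.0612) and -0.026 in cohort 2 (adjusted p = 0.762), which did not pass.

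The members with the clearest contrast were RGS genes that differ between the 2 regions. Of the 38 members that could be tested in both regions, 28 had an adjusted p under 0.05 for P/FC against HIP (limma, adjusted over 20963 probesets), against 69.6% of all probesets, so that members differed between regions about as often as probesets in general. Among them 21 were higher in P/FC (48.5% of all probesets) and 7 were higher in HIP (21.1%), and the median difference of the members was 0.13 on the log2 scale against 0.08 over all probesets. With the arrays of both regions brought to one distribution (quantile normalization) the split was 17 higher to 12 lower, the split of all probesets went from 10168 higher and 4414 lower to 6527 and 7189, and the median over all probesets went from 0.08 to -0.01. Differences near that size thus depend on the scaling: Gnai1, Gng5, Gng8, Rgs3 and Rgs8 changed sign with it, none of which passed in the values as deposited.

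Rgs4, which acts on Gi/o and Gq subunits and is known as an RGS protein of the cerebral cortex, had the largest difference. Its intensity over the 39 arrays of HIP was 207 at the lowest, 418 at the median and 934 at the highest, and in P/FC it was 1114, 1759 and 2007. No array of P/FC was as low as any of HIP, in either line or cohort, and the log2 difference was 2.06 (SE 0.0706, limma, adjusted p = 6.32e-40), with 2.12 at its other probeset. Rgs2, a regulator of Gq, was the only other member whose regions did not overlap, which makes 2 of the 38 members tested against 2.95% of all probesets. Its intensities were 302, 339 and 426 in HIP and 463, 572 and 694 in P/FC, a log2 difference of 0.76 (SE 0.0265, adjusted p = 1.93e-39). The other way round, Rgs10, an RGS protein of neurons and of microglia, was higher in HIP, where its intensities ran from 506 over a median of 607 to 784, than in P/FC, where they were 273, 364 and 587. The ranges overlapped and the log2 difference of P/FC against HIP was -0.73 (SE 0.0405, limma, adjusted p = 2.46e-27).

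The bases in front of these genes show how unlike the promoters of RGS genes are. They are shown for Rgs4 and Rgs2, the members with no overlap between regions, for Rgs10, which had the opposite direction, and for Rgs17, whose line difference is given below. Each line holds the 250 bases before the transcription start, 5' to 3' on the strand of the gene, from RefSeq on the build GRCr8: chr13:84475885-84476134, chr13:58352667-58352916, chr1:192418078-192418327 and chr1:44729946-44730195, each on the minus strand. Capitals mark a match, on either strand, to the TATA sequence TATAAA, the GC box GGGCGG or the sequence CCAAT, and the cAMP response element TGACGTCA was searched as well.
Rgs4: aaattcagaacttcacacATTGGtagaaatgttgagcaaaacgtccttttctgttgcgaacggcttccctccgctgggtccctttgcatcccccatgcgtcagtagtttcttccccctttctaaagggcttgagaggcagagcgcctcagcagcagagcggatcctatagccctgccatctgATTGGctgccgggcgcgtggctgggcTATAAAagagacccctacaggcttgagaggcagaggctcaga
Rgs2: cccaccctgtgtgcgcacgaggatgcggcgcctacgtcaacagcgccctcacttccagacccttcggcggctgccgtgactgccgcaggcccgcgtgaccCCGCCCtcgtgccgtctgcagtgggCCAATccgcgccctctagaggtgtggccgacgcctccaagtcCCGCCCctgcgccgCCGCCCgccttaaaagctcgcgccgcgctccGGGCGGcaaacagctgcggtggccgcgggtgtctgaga
Rgs10: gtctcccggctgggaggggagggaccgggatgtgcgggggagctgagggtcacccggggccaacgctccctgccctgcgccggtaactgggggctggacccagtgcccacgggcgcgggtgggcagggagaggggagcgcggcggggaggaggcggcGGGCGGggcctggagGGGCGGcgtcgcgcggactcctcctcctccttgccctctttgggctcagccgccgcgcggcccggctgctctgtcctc
Rgs17: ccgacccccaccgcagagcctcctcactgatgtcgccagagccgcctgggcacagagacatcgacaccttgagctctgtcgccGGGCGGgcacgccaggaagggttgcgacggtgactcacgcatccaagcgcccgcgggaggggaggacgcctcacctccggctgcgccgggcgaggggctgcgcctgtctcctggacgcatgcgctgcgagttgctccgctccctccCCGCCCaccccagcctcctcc
Rgs4 had TATAAA and matches to CCAAT and no GC box, Rgs2 had GC boxes and a CCAAT, and Rgs10 and Rgs17 had GC boxes and none of the other motifs. Of the 34 members with a promoter in the RefSeq table, 21 held a GC box, which 30.5% of all 33469 promoters hold in the same 250 bases, and 4 held TATAAA, which 12.9% of all hold. CCAAT was in 8 of the 34 and in 34% of all, and the cAMP response element in 1 (Gnao1) and in 1.59% of all. The median GC content was 62.2% in the members and 51.2% in all promoters. A match is only a stretch of letters, and binding of a factor was not measured.

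**Figure D1:**
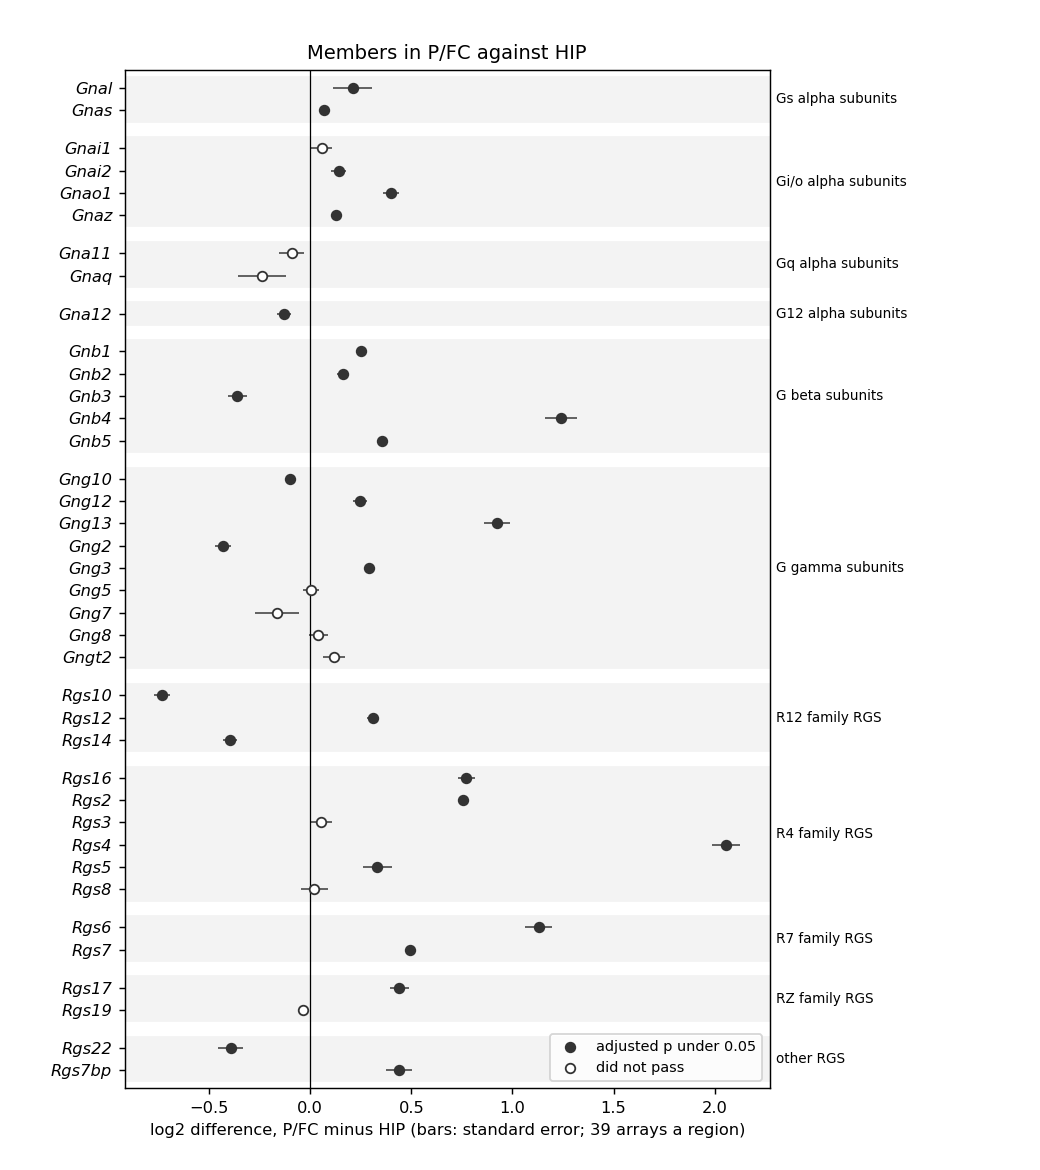
The log2 difference of P/FC minus HIP is plotted for each of the 38 members tested in both regions, grouped by family on the vertical axis, with bars for the standard error of the fit and filled points for an adjusted p under 0.05. Rgs4 stands apart at 2.06, and Rgs10 at -0.73 is furthest to the side of HIP among these 38, which do not include Gna14 and Gng11.

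The other RGS genes fell on both sides. All 6 members of the R4 family, the small RGS proteins to which Rgs2 and Rgs4 belong, had a positive value as deposited and 4 of them passed. Rgs3 (0.05) and Rgs8 (0.02) did not pass at the probeset used, and both changed sign with quantile normalization. For Rgs3 the choice of probeset decides: another of its probesets was at 0.41 (SE 0.0442, limma, adjusted p = 2.21e-13), and Rgs3 passed with the mean of all probesets. Rgs16 had intensities of 40.6, 64.7 and 92.95 (lowest, median and highest) in HIP and of 81.8, 108 and 148 in P/FC, a log2 difference of 0.77 (SE 0.0415, limma, adjusted p = 4.89e-28). Rgs5, known from pericytes, passed at 0.33 (SE 0.0713), and 10 of 11 endothelial and mural markers were higher in P/FC too, whose part in it was not tested. Both genes of the R7 family passed, whose proteins bind the unusual beta subunit Gnb5 in neurons. Rgs6 was at 25.4, 34.9 and 49.5 in HIP and at 39.4, 79.6 and 116 in P/FC (log2 difference 1.13, SE 0.0667), and Rgs7 was at 524, 577 and 681 and at 633, 827 and 1051 (0.49, SE 0.0238). Gnb5 itself was higher in P/FC by 0.35 (SE 0.0192), as was the R7 binding partner Rgs7bp, by 0.44 (SE 0.0627). Of the R12 family Rgs14, known for its place in the pyramidal cells of hippocampal area CA2, was at 274, 408 and 518 in HIP and at 257, 305 and 395 in P/FC, a log2 difference of -0.40 (SE 0.0335), while Rgs12 was on the side of P/FC with 0.31 (SE 0.0263). Rgs22, a dim member with medians of 39.5 in HIP and 31.6 in P/FC, was higher in HIP (-0.39, SE 0.0629).

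Among the G protein subunits 12 of 23 were higher in P/FC and 4 were higher in HIP. Gnb4 had the largest difference of the beta subunits: its intensities were 36.3, 55.7 and 82.9 in HIP and 75.1, 128 and 209 in P/FC, which overlapped slightly (log2 difference 1.24, SE 0.0803, limma, adjusted p = 1.42e-23). Gng13, a gamma subunit known from taste and olfactory signalling, was at 98.7, 156 and 253 in HIP and at 143, 308 and 546 in P/FC (0.92, SE 0.0638, adjusted p = 4.51e-22). Gng2 was on the other side with 297, 437 and 585 in HIP and 212, 326 and 413 in P/FC (-0.43, SE 0.0401), and its other probeset gave -0.52. Gnao1, the alpha subunit of Go and one of the most abundant membrane proteins of brain, was higher in P/FC by 0.40 (SE 0.0392). The Gs subunit Gnas differed by 0.07 (SE 0.0183), and with quantile normalization Gnas, Gnai2, Gnal and Gnaz did not pass. The Gq subunits Gnaq and Gna11 did not pass (-0.24 and -0.09), and with quantile normalization both passed as higher in HIP, as did Gng5, Gng7 and Rgs19. For 2 of the 7 members on the side of HIP the choice of probeset decides: Gnb3 was at -0.36 (SE 0.0468) and at 0.03 at its other probeset, and Gna12 was at -0.13 (SE 0.0343) and at 0.13. Gng10, the seventh, was at -0.10 (SE 0.0193).

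In P/FC 16 of the 39 members that could be tested differed between FSL and FRL over both cohorts at an adjusted p under 0.05 (limma, adjusted over 22370 probesets), 9 of them higher in FSL and 7 lower, while 18.6% of all probesets passed (9.76% higher and 8.86% lower). They were 10 of 24 subunits and 6 of 15 RGS genes. In HIP 2 of 39 members passed, both lower in FSL, while 7.33% of all probesets did and 4.13% were lower. At an unadjusted p under 0.05 there were 20 members in P/FC and 9 in HIP, with 31.8% and 21.1% of all probesets. The median log2 difference of the members was 0.01 in P/FC and 0.01 in HIP, and that of all probesets was 0.00 in both, so that the members moved in both directions.

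These line differences stood beside differences in RNA integrity and in cell type markers. With the Gapdh ratio of each array as a covariate 2 of the 16 members in P/FC had an adjusted p under 0.05, Rgs17 and Gng12, and the number of probesets went from 4166 to 853. In P/FC 8 of 9 astrocyte markers were lower in FSL (median log2 difference of the list -0.26), as were 5 of 11 endothelial and mural markers (median -0.21) and 2 of 9 microglia markers, Ctss and Csf1r (median -0.21). Of 9 striatum markers 2 were higher, Drd1 and Tac1, with a median of 0.58. Of 8 genes listed as interneuron markers 3 were higher (median of the list 0.09). These were Gad1, Gad2 and Slc32a1, which mark GABA neurons in general. The sum of the 8 genes had a median of 4760 in FRL and 5493 in FSL in cohort 1 and of 4719 and 4881 in cohort 2. Of 5 cortex markers Foxp2 was higher, and Lamp5 and Cux2 were lower. The part of these in the line differences of the members was not tested beyond the fits given here.

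**Figure D2:**
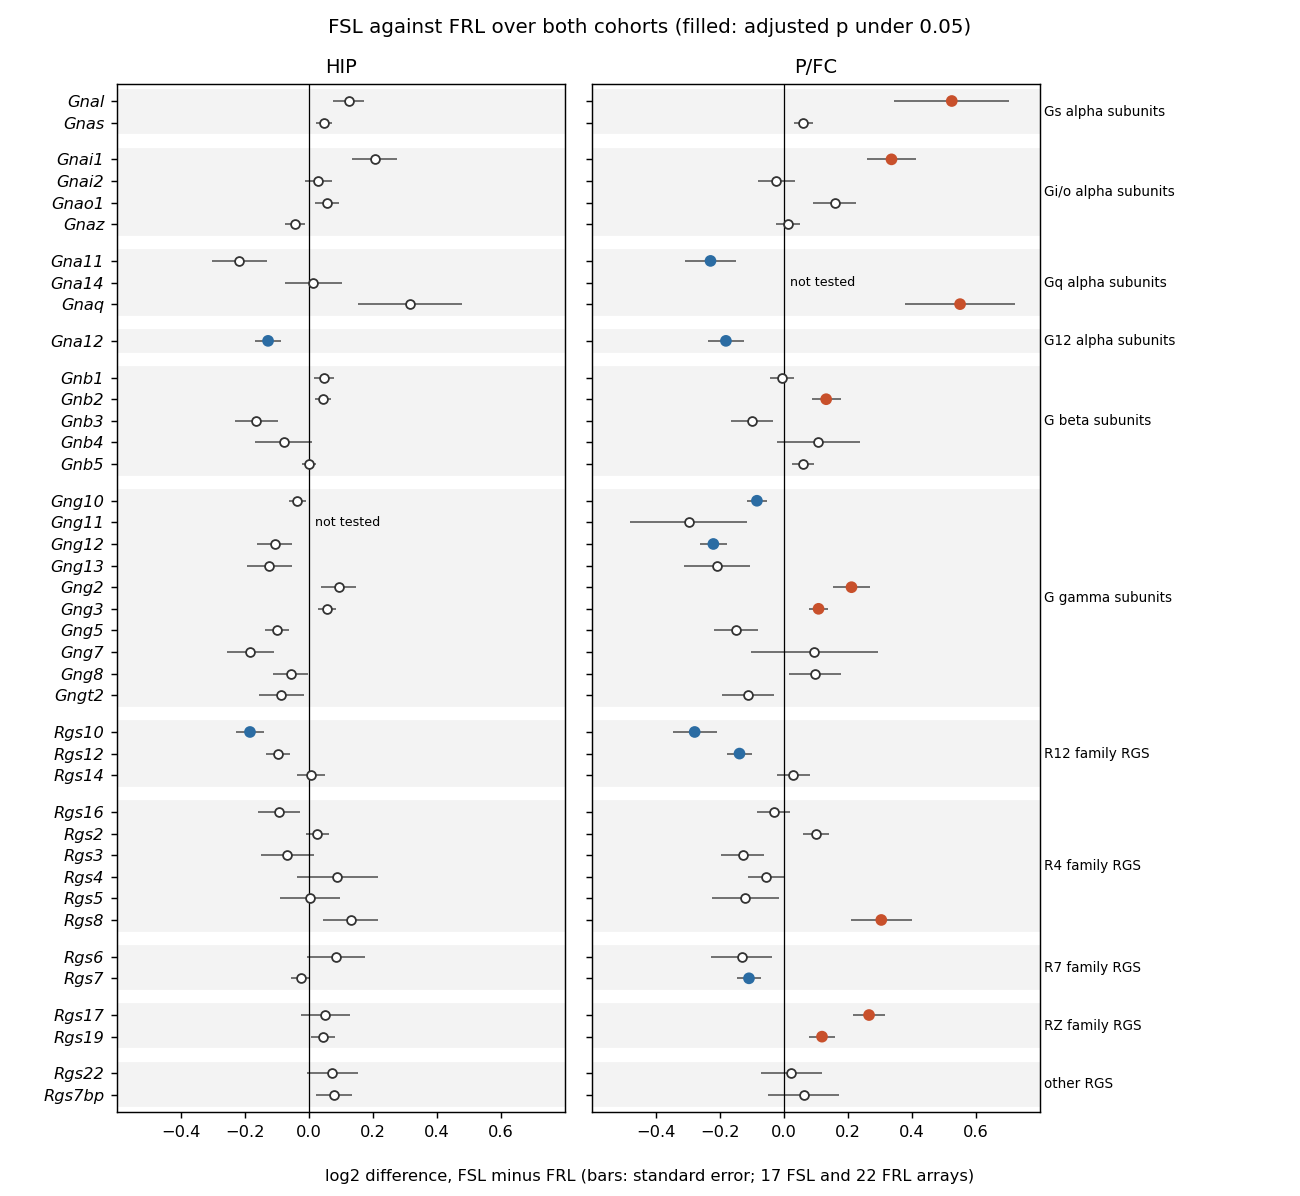
The log2 difference of FSL minus FRL over both cohorts is plotted for each member in HIP and in P/FC (17 FSL and 22 FRL arrays in each), with bars for the standard error and filled points for an adjusted p under 0.05, red where FSL was higher and blue where it was lower. In HIP the filled points are Rgs10 at -0.18 and Gna12 at -0.13, and in P/FC there are 16.

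Rgs17, an RGS protein that acts on Gi/o and Gz subunits, had the smallest p of the members in P/FC. Its intensity in cohort 1 was 182, 215 and 275 in FRL (lowest, median and highest) and 192, 261 and 294 in FSL, and in cohort 2 it was 287, 303 and 350.3 in FRL and 364, 384 and 405 in FSL. In cohort 2 each of 8 FSL arrays was above the highest FRL array, and in cohort 1 the lines overlapped with 8 of 9 FSL arrays above the FRL median. No other member had lines without overlap in a region and cohort, and the share of all probesets that had was not counted. The log2 difference was 0.27 (SE 0.0488, limma, adjusted p = 2.01e-04), with 0.21 in cohort 1 and 0.32 in cohort 2, and with the Gapdh ratio as a covariate it was 0.20 (adjusted p = 0.0261). All 5 probesets of Rgs17 passed, with 0.27 to 0.53. Its relative Rgs19, which also acts on Gi/o, passed with 0.12 (SE 0.0404, adjusted p = 0.0345), and its medians were 168 in FRL and 176 in FSL in cohort 1 and 157 and 170.5 in cohort 2.

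Rgs10 was lower in FSL in both regions. In P/FC its intensities in cohort 1 were 319.6, 401 and 552 in FRL and 286, 324 and 389 in FSL, and in cohort 2 they were 323, 384 and 587 in FRL and 273, 335 and 453 in FSL. The lines overlapped in both cohorts, with 9 of 9 and 7 of 8 FSL arrays below the FRL median, and the log2 difference was -0.28 (SE 0.0682, limma, adjusted p = 0.00365). With the Gapdh ratio as a covariate it was -0.23 (adjusted p = 0.106). The summed intensity of 9 microglia markers, a cell type that contains Rgs10, ran from 2420 to 3549 in FRL and from 2174 to 2720 in FSL in cohort 1, and from 2276 to 3718 and from 2164 to 2567 in cohort 2, and its part in the difference of Rgs10 was not tested. Rgs12, of the same R12 family, was lower in FSL too (-0.14, SE 0.0387, adjusted p = 0.0100), with medians of 402 in FRL and 355 in FSL in cohort 1 and of 416 and 401 in cohort 2. Rgs14, the third of the family, was at 0.03 (SE 0.0514) and did not pass.

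Of the remaining RGS genes Rgs8 and Rgs7 passed. Rgs8, an R4 protein known from striatum and cerebellum, had FRL intensities of 36.7, 69.6 and 78.6 and FSL intensities of 66.1, 83.6 and 99.4 in cohort 1, and of 36.6, 59.2 and 81.1 and of 51.4, 64.5 and 84.5 in cohort 2 (0.30, SE 0.0961, adjusted p = 0.0228). Rgs7 was lower in FSL (-0.11, SE 0.0385, adjusted p = 0.0419), at -0.20 in cohort 1 and -0.02 in cohort 2. Rgs2 did not pass at the probeset used (0.10, SE 0.0405, adjusted p = 0.0819) and passed at its other probeset (0.28, adjusted p = 0.0131). Rgs4, the member with the largest contrast between regions, was at -0.06 (SE 0.0570, adjusted p = 0.538) in P/FC.

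**Figure D3:**
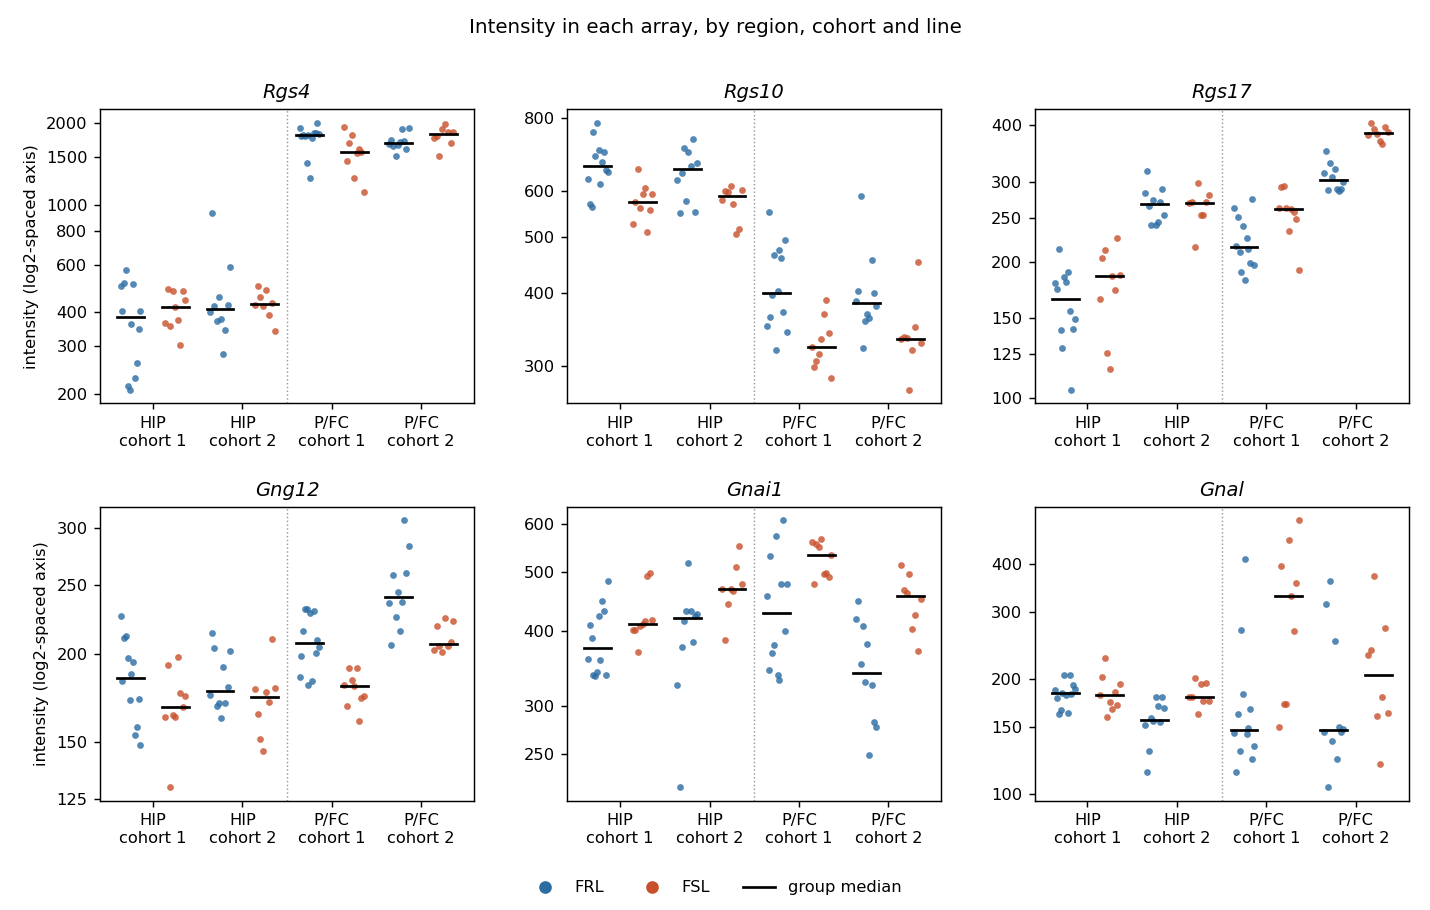
The intensity of every array is plotted for Rgs4, Rgs10, Rgs17, Gng12, Gnai1 and Gnal by region, cohort and line on a log2-spaced axis, with a bar for each group median. For Rgs4 the arrays of HIP (207 to 934) lie below those of P/FC (1114 to 2007), and for Rgs17 in P/FC the FSL arrays of cohort 2 (364 to 405) lie above the FRL arrays (287 to 350.3).

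Of the alpha subunits 5 passed in P/FC. Gnai1, an inhibitory subunit of adenylyl cyclase, was at 331, 428 and 609.5 in FRL and at 478, 534 and 567 in FSL in cohort 1, and at 249, 341 and 448 and at 370.2, 456 and 513 in cohort 2. All FSL arrays of both cohorts were above the FRL median of their cohort, within ranges that overlapped, and the log2 difference was 0.34 (SE 0.0756, limma, adjusted p = 0.00177). With the Gapdh ratio as a covariate it was 0.12 (adjusted p = 0.302). The subunits of the Gq family went apart. Gnaq was a dim signal with FRL intensities of 42.4, 92.1 and 136 and FSL intensities of 74.6, 117 and 147 in cohort 1, and of 14.9, 34.2 and 81.6 and of 37.7, 59.8 and 103 in cohort 2 (0.55, SE 0.172, adjusted p = 0.0213, and 0.05 with the Gapdh ratio as a covariate). Gna11 was lower in FSL, with medians of 98.4 in FRL and 92.6 in FSL in cohort 1 and of 100.1 and 78.3 in cohort 2 (-0.23, SE 0.0808, adjusted p = 0.0416). Gna12, the alpha subunit of G12, was at 645, 954 and 1202 in FRL and at 705, 837 and 880.5 in FSL in cohort 1, and at 758, 941 and 1088 and at 739.7, 791 and 878 in cohort 2. All 17 FSL arrays were below the FRL median of their cohort (-0.18, SE 0.0561, adjusted p = 0.0202), and its other probeset gave -0.09 (adjusted p = 0.606). Gnas, Gnai2, Gnao1 and Gnaz did not pass, with 0.06, -0.02, 0.16 and 0.01.

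Among the beta and gamma subunits, which anchor the alpha subunit to the membrane and act on channels and enzymes of their own, 5 passed in P/FC. Gng12 was at 181, 207 and 231 in FRL and at 161, 180.3 and 191 in FSL in cohort 1, and at 206, 240.4 and 308 and at 201, 206 and 224 in cohort 2. All 17 FSL arrays were below the FRL median of their cohort, the ranges overlapped, and the log2 difference was -0.22 (SE 0.0425, limma, adjusted p = 3.59e-04) and -0.22 in each cohort. With the Gapdh ratio as a covariate it was -0.18 (adjusted p = 0.0303), and the other probeset of Gng12 gave -0.10 (adjusted p = 0.653). Gng2 and Gng3, both neuronal gamma subunits, were higher in FSL. Gng2 had medians of 317 in FRL and 349 in FSL in cohort 1 and of 293 and 343 in cohort 2 (0.21, SE 0.0588, adjusted p = 0.0101), and Gng3 had 1419.8 and 1524 and then 1311 and 1492 (0.11, SE 0.0299, adjusted p = 0.00956). The other probeset of Gng2 gave 0.15 and did not pass (limma, adjusted p = 0.218). Gnb2 was the only beta subunit that passed (0.13, SE 0.0452, adjusted p = 0.0360), and its other probeset was at -0.04 (adjusted p = 0.408). Gng10 passed with -0.08 (SE 0.0302, adjusted p = 0.0446), the largest p of the 16, and is named here to complete them.

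In HIP Rgs10 and Gna12 passed. Rgs10 was at 563, 659.9 and 784 in FRL and at 509.9, 574 and 652 in FSL in cohort 1, and at 549.8, 652 and 735 and at 506, 587 and 611 in cohort 2. All 17 FSL arrays were below the FRL median of their cohort, in ranges that overlapped, and the log2 difference was -0.18 (SE 0.0431, limma, adjusted p = 0.00466). Summed microglia markers ran from 2314 to 2689 in FRL and from 2048 to 2627 in FSL in cohort 1, and from 2095 to 2619 and from 2138 to 2374.5 in cohort 2, and 1 of 9 was lower (Ctss) and 1 higher (P2ry12). Of 9 astrocyte markers 6 were lower in FSL in HIP (median -0.11), the direction of Rgs10 and Gna12. Of the 8 genes listed as interneuron markers 1 was higher (Gad1, median of the list 0.08). The part of these markers was not tested. Gna12 was at 869, 1040.2 and 1207 in FRL and at 751, 917 and 1028 in FSL in cohort 1, and at 828, 919.8 and 1046 and at 833, 885 and 1008 in cohort 2 (-0.13, SE 0.0398, adjusted p = 0.0404). Its other probeset gave -0.03 (adjusted p = 0.903), and it did not pass with either control ratio as a covariate, where Rgs10 did. Gnai1 was at 0.20 (SE 0.0695, adjusted p = 0.0637), and Rgs17 at 0.05 (SE 0.0764, adjusted p = 0.770). The other probesets of Rgs17 were at 0.04 to 0.28 in HIP, and none of them passed.

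The line effect of the members was then set between regions and between cohorts. For the line effect in P/FC minus that in HIP none of 38 members passed (limma), with 0.0668% of all probesets passing, and 2 members were at an unadjusted p under 0.05 (7.94% of all probesets). They were Rgs17 (0.22, p = 0.0208, adjusted p = 0.530) and Gnal (0.40, p = 0.0390, adjusted p = 0.595), and Gnb2 came next (0.09, p = 0.0837, adjusted p = 0.697). A difference between the regions in the line effect of a member was therefore not detected.

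By cohort, 8 members passed in P/FC in cohort 1 (limma), with 7.80% of all probesets passing. Gnal, Rgs2, Rgs8 and Rgs17 were higher in FSL (3.80% of all probesets) and Gng12, Rgs7, Rgs10 and Rgs12 were lower (4.01%). With the striatum marker score described further on as a covariate 0 members passed in cohort 1, where all probesets went from 1745 to 340, and with the Gapdh ratio 1 did (Rgs7). In cohort 2 there were 4, Gnai1, Gng3 and Rgs17 higher and Gng12 lower, with 3.78% of all probesets (1.81% higher and 1.98% lower). An unadjusted p under 0.05 with the same sign in each cohort was reached by 6 members in P/FC (Gnai1, Gng2 and Rgs17 higher, Gna12, Gng12 and Rgs10 lower), and by 9.87% of all probesets. In HIP this was Rgs10 alone, and 4.85% of all probesets, with Rgs10 and Gna12 passing in cohort 1 (2.36% of all probesets) and no member in cohort 2 (2.33%), where 7 were at an unadjusted p under 0.05 (13.8% of all probesets).

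**Figure D4:**
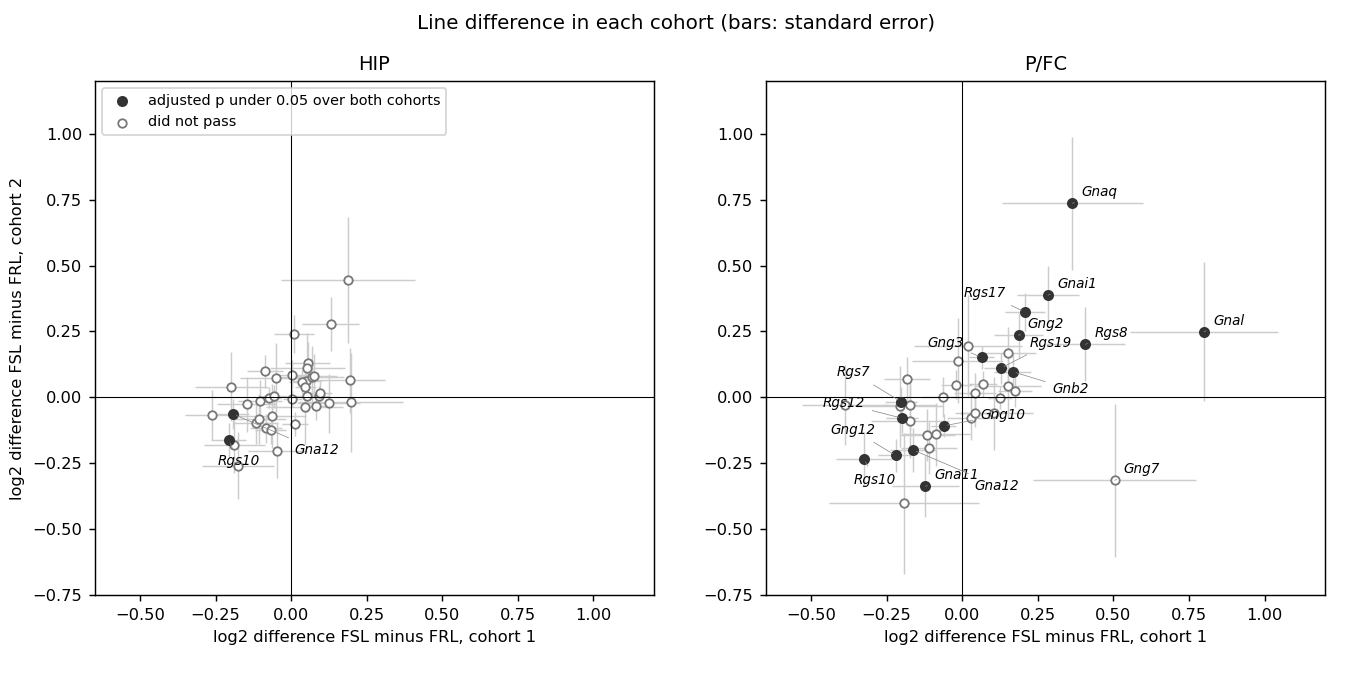
The log2 difference of FSL minus FRL in cohort 2 is plotted against that in cohort 1 for each member, in one panel for HIP and one for P/FC. In P/FC Rgs17 (0.21 and 0.32), Gnai1 (0.28 and 0.39) and Gng12 (-0.22 in each) lie on the same side in both cohorts, and Gng7 (0.50 and -0.32) does not.

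The test of the line effect between cohorts passed for none of the 39 members in either region (limma), and for 0% of all probesets. At an unadjusted p under 0.05 there were 2 members in HIP (4.33% of all probesets) and 4 in P/FC (4.63%). The smallest p values in HIP were those of Gnal (0.23, p = 0.0236) and Rgs14 (0.19, p = 0.0391), followed by Gnaz (-0.11, p = 0.0801), and in P/FC those of Rgs7 (0.18, p = 0.0214), Rgs4 (0.25, p = 0.0323), Gnas (-0.13, p = 0.0394) and Gng7 (-0.82, p = 0.0454), where a positive value is a higher line difference in cohort 2.

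Gnal and Gng7, which form the olfactory G protein of striatal neurons with a beta subunit, varied more from array to array in P/FC than in HIP. The standard deviation of the log2 intensity within groups was 0.580 for Gnal in P/FC and 0.151 in HIP, and 0.638 and 0.234 for Gng7. Gnal had FRL intensities of 114, 147 and 414 and FSL intensities of 149.5, 331 and 524 in cohort 1, and of 104, 147 and 363 and of 120.0, 205 and 373 in cohort 2. The lines overlapped over most of the range in both cohorts, with a log2 difference of 0.52 (SE 0.180, limma, adjusted p = 0.0368) and the same 0.52 at the other probeset. Gng7 had medians of 249.8 in FRL and 423 in FSL in cohort 1 and of 361 and 303 in cohort 2, and did not pass (0.09, SE 0.198, adjusted p = 0.791).

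Both followed the content of striatum markers in the tissue. The sum of 9 striatum markers (Penk, Ppp1r1b, Pde10a, Pdyn, Drd1, Tac1, Adora2a, Drd2 and Gpr6) ran from 1509 to 6274 over the FRL arrays of P/FC in cohort 1 and from 2014 to 6399 over the FSL arrays, and from 1546 to 6328 and from 1634 to 6178 in cohort 2. A score was made of them as the mean of their standardised log2 intensities, whose mean in cohort 1 was 0.63 in FSL and -0.50 in FRL and in cohort 2 was 0.11 and -0.05. Over the 39 arrays of P/FC the log2 intensity of Gnal had a Pearson r of 0.940 and a Spearman rank correlation of 0.934 with this score, 0.937 without the 2 arrays farthest from the median, 0.956 within cohort 1 and 0.946 within cohort 2. For Gng7 r was 0.874 and the Spearman rank correlation 0.824, with 0.854 without those 2 arrays and 0.8996 and 0.882 within the cohorts. Of 39 such relations 12 had an adjusted p under 0.05 in a permutation test with 100000 permutations, 7 positive and 5 negative, and arrays share tissue and depth, so that these are a description. Rgs8 (0.621), Rgs2 (0.589) and Gnb2 (0.527) were positive too, and Rgs7 (-0.741), Rgs4 (-0.714) and Gng13 (-0.608) were negative. With the score as a covariate the line difference of Gnal was 0.13 (limma, adjusted p = 0.197). In that fit 10 members passed, 9 of them among the 16, and the number of all probesets that passed went from 4166 to 2925. The tenth was Gng7, which turned from 0.09 to -0.32 (limma, adjusted p = 0.0124) and in cohort 2 went from -0.32 to -0.42 (adjusted p = 0.0388). Those of the 16 that did not pass were Gna11, Gnal, Gnb2, Rgs7, Rgs8, Rgs12 and Rgs19.

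**Figure D5:**
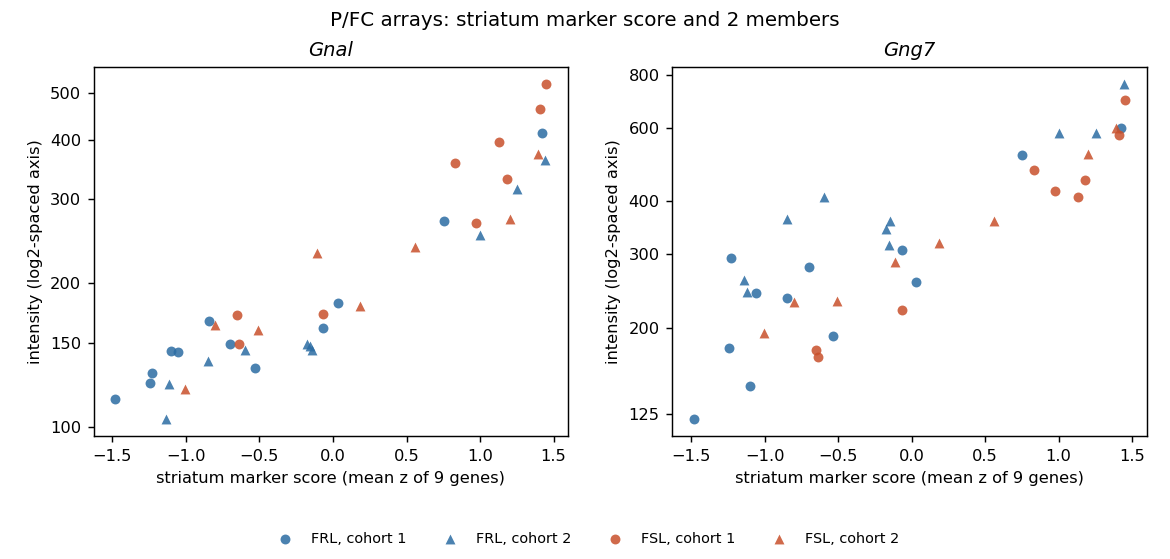
The intensity of Gnal and of Gng7 is plotted against the striatum marker score of the same array for the 39 arrays of P/FC, by line and cohort. Arrays with a high score have a high intensity of both genes in either line, with r = 0.940 for Gnal and r = 0.874 for Gng7.

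The enzymes, channels and regulators on which these proteins act were followed from a list. Over all probesets 18.6% passed between the lines in P/FC and 7.33% in HIP, and 31.8% and 21.1% had an unadjusted p under 0.05. Counts from lists of 4 to 7 genes are a description beside these shares, and the values are those of the fit without a covariate. Of 6 adenylyl cyclases tested in P/FC, Adcy5, the cyclase of striatum (0.28, adjusted p = 0.0491), and Adcy3 (0.28, adjusted p = 0.0182) were higher in FSL and Adcy9 was lower (-0.32, adjusted p = 0.0233), and in HIP Adcy5 alone passed (0.31, adjusted p = 0.00102). None of 4 phospholipases C beta and none of 4 G protein-gated potassium channel subunits passed in either region (limma), with 1 phospholipase at an unadjusted p under 0.05 in each region, 1 channel subunit in HIP and 0 in P/FC. Of 5 receptor kinases and arrestins in P/FC, Grk6 (-0.25, adjusted p = 0.0119) and Arrb1 (-0.24, adjusted p = 0.0248) were lower in FSL, and none of 4 passed in HIP, where 0 were at an unadjusted p under 0.05. Of 6 chaperones and activators Pdcl, which folds the beta and gamma subunits, was higher in P/FC (0.14, adjusted p = 0.0348). Among 7 other proteins with an RGS domain Snx14 was lower in both regions (-0.40 in each) and Arhgef1 in P/FC (-0.11, adjusted p = 0.0226). Between the regions Plcb4 was higher in P/FC by 1.66 and the channel subunit Kcnj6 was higher in HIP (-0.65).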

How the data were processed

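Expression was measured on 78 Affymetrix Rat Genome 230 2.0 arrays. The deposited values are intensities on a linear scale, which the authors normalised in Rosetta Resolver 5.1, and the labels give no labelling batch, which was left out of the models. Values under 1 (16116 of 2425722 were at or below 0) were set to 1 before log2. Controls (57 probesets) were left out, and a probeset was kept where it was over 30 in 50% or more of the FSL arrays and of the FRL arrays of a region. Each gene was read from its brightest probeset. Lines, cohorts and regions were compared in R 4.3.3 with limma 3.58.1, fitting each combination of line and cohort as a group, with Benjamini-Hochberg adjustment over all probesets kept, after the scripts had been tested on simulated data. Correlations and exact permutation tests used scipy 1.17.1. Genes are named by rule: the members that passed between lines in a region (at most the 15 of smallest p), the 8 of largest difference between regions in each direction and the 3 of smallest p between cohorts or in the line effect between regions, with others added to complete a family. The members and lists were chosen with earlier results of these data known. Alternatives were the filter (none, or 100), quantile normalization, 16 added before log2, plain analysis of variance, averaging the probesets of each gene, the replicate block, and the Gapdh ratio, the Actb ratio or the striatum score as a covariate. The number of arrays limits the precision. Promoters came from RefSeq (GRCr8).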

Additional observations from a re-analysis of the deposited data

Results flagged for a closer look

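In 8 of 162 groups of arrays (27 genes), 1 array stood apart from the rest of its group by a gap that is large for the whole range of the group, and chance alone gives about 1 in 20. The gap is given as a share of that range. In P/FC these were Gna12 in FSL cohort 1 replicate 4 (705 against 806 to 880.5, 0.603), Rgs6 in FSL cohort 1 replicate 9 (39.4 against 61.8 to 91.6, 0.534), Rgs16 in FSL cohort 2 replicate 6 (145 against 110.1 to 124, 0.566) and Gnaz in FRL cohort 2 replicate 3 (290.2 against 321 to 356, 0.497). In HIP they were Rgs8 in FSL cohort 2 replicate 2 (45.1 against 55.1 to 62.1, 0.629), Gnb2 in FRL cohort 2 replicate 2 (1046 against 1137 to 1221, 0.54), Gng12 in FSL cohort 1 replicate 3 (129.7 against 163 to 198, 0.539) and Gnb4 in FSL cohort 1 replicate 4 (38.9 against 49.7 to 61.6, 0.531). Only that of Rgs16 was above its group, and no array was named for more than 1 gene. The cause was not tested.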

How the results depend on the processing

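With 16 added before log2 and with plain analysis of variance none of 10 counts moved by over 1.5 times and none of 56 gene values changed sides or direction. Of the 16 members called in P/FC 2 passed with the Gapdh ratio as a covariate, 10 with the Actb ratio and 9 with the striatum score, where 10 members passed with Gng7. In P/FC cohort 1 the 8 became 4 without a filter, 1 with the Gapdh ratio, 2 with the Actb ratio and 0 with the striatum score, and in cohort 2 the 4 became 2 without a filter and 0 with the Gapdh ratio. In the same order all probesets went from 1745 to 1479, 440, 896 and 340 in cohort 1, and from 846 to 736 and 208 in cohort 2. Over both cohorts of P/FC 12 passed without a filter, with 3983 of all 31042 probesets passing. The mean of all probesets lost Gna12, Gnb2, Gng12 and Rgs12 and added Gnas and Rgs2, with 3106 of 17427 values passing. Quantile normalization lost Gna11, Gng10 and Rgs19 and added Gnas, with 4303 of 22370 probesets passing. The filter of 100 lost Gna11, Gnaq and Rgs8 and added Rgs2, with 3552 of 11089 passing. In HIP the 2 became 1 without a filter and with either ratio, and with the mean of all probesets they were Rgs10 and Gnas, the latter higher in FSL, without Gna12. All probesets there went from 1586 to 1486 without a filter and to 1130 with the Gapdh ratio, and 1171 of 16817 values passed with the mean. In HIP cohort 1 they became 0 without a filter and with either ratio, and 1 with the mean of all probesets or the striatum score. All probesets in that cohort went from 511 to 524 without a filter, to 456 with the Gapdh ratio, to 209 with the Actb ratio and to 562 with the striatum score. With the mean 406 of 16817 values passed. In HIP cohort 2 the filter of 100 and the replicate block gave 1 (Gnal). Signs turned in HIP for Rgs12 with the mean of all probesets (0.16) and, with the Actb ratio, for Gnaq (-0.16), Rgs8 (-0.018), Rgs19 (-0.013) and Gnb2 (-0.021), and between regions for Gna12 with the mean of all probesets (0.0019), none of which passed. In P/FC Gng7 turned with the striatum score (-0.32) and passed. Other members turned as well over both cohorts, and none of these passed. In P/FC they were Gnb1, Gnb4, Rgs4 and Rgs14 with the striatum score, and Gnb1 with the mean of all probesets. With the Gapdh ratio Gnao1, Gnb1, Gnb4, Rgs7bp and Rgs22 turned there. In HIP they were Gnaz with the mean of all probesets, and Gna14 and Rgs5 with either ratio. Gnb5 turned in HIP with the Actb ratio and with quantile normalization. The cause was not tested. Over all probesets the P/FC count went from 4166 to 853 with the Gapdh ratio, to 2944 with the Actb ratio and to 2925 with the striatum score. The Actb ratio took the HIP count from 1586 to 442. Same-numbered arrays of the lines correlated above 0.1 in 5 of 9, 3 of 8, 4 of 9 and 6 of 8 pairs. Those of HIP and P/FC in the same line and cohort did so in 10 of 39. Arrays of different numbers were not set beside them, so these counts cannot decide whether the numbers pair samples. With the replicate block, whose consensus correlation was 0.132 in P/FC and 0.104 in HIP, 16 members passed in P/FC, 10 in cohort 1 and 5 in cohort 2. There were 29 between regions and 3 in HIP, where Gnai1 was added. All probesets went from 4166 to 4972 in P/FC, from 1745 to 2497 in cohort 1 and from 846 to 1406 in cohort 2. Between regions they went from 14582 to 14683, and in HIP from 1586 to 2104.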
